A study of Mus musculus with 20 samples.

Results

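Blood of old mice given 4 Gy of x-rays was compared with blood of old mice given 0 Gy. The comparison was drawn from arrays titled as old irradiated (5) or old unirradiated (5), 10 of the 20 arrays in the series, and the other 10 came from young mice. All mice were female C57BL/6J, and old meant 24 months of age, young 2 months. Blood was taken at euthanasia 24 h after exposure by cardiac puncture into a lysis solution that preserves RNA, so all blood cells contributed, and Cy3-labelled cRNA was hybridised to 1-colour Agilent arrays. Neither group carried an engineered allele or a further treatment in the labels, and the labels describe 5 independent experiments at each age. A level is the log2 signal of a gene's probe minus the 75th percentile of its array, so a probe at 0 is as bright as that percentile, and values are listed in the order of arrays 1 to 5 of a group. Levels compare one gene between arrays and not one gene with another. They are relative to the rest of an array, so a rise or fall of a cell type's genes does not measure its number of cells. Fold changes are irradiated over unirradiated, on the log2 scale with the standard error from limma, and a gene counted as changed at an adjusted p under 0.05 over all 16549 genes tested.

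Double-strand breaks made by x-rays activate the transcription factor p53, which induces genes of cell cycle arrest, apoptosis and repair together with its own inhibitors. Lymphocytes are among the most radiosensitive cells of the body, and within blood B cells are known to be lost early, whereas neutrophils and platelets survive longer. Type I interferon signalling induces antiviral genes and is known to be switched on in some irradiated tissues. Blood drawn through the chest wall can also carry cells of the pleural and peritoneal linings, the liver or the heart, so markers of these were followed too.

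The arrays of old mice were not equally good. On irradiated array 5 the 75th percentile lay at 19.2 intensity units against 93 to 199 on the other 9, and the share of spots well above background was 33.3%, compared with 48.2% to 55.7%. It is called the dim array here, and its lowest signals lie near -3.4 on the scale of levels because its 75th percentile is low. Its median correlation with its own group over all genes was 0.843, against 0.927 to 0.947 for irradiated arrays 1 to 4 and 0.982 to 0.988 for the unirradiated arrays. The irradiated group was thus more varied than the unirradiated one. The arrays lay on slides of 4: slide 3 held unirradiated arrays 1 and 2, slide 4 held unirradiated arrays 3 to 5 with irradiated array 1, and slide 5 held the other 4 irradiated arrays. With slide as a fixed block no gene was called by limma in old mice, while 1617 had an unadjusted p under 0.05. Within slide 4 alone the spread comes from its unirradiated arrays only, because a single irradiated array shows none. The irradiated arrays were the more varied, so only fold changes are given for slide 4. Of the 166 genes named here 128 were called in old mice, and all 128 had the same direction within slide 4 as over all 10 arrays. The arrays of slide 4 are among the 10 by which these genes were called, so this agreement was partly fixed in advance. Of these 128, 83 kept their call whichever of the 10 old arrays was left out, and the losses among the others are given beside them. Slide 4 values are given for the leading genes, and how much of a difference belongs to the slides beyond that was not tested.

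Over all 10 arrays 1030 of 16549 genes (6.22%) were called, 663 higher (4.01%) and 367 lower (2.22%) after irradiation. Of these, 805 changed at least 2-fold. Without the dim array 2466 genes (14.9%) were called, 1095 higher (6.62%) and 1371 lower (8.28%), so the share of calls that were higher went from 64.4% to 44.4%. It was 53.9% after quantile normalization, 52.0% with a 75th percentile restricted to probes that all 20 arrays measured well above background, 48.7% with array weights and 12.5% of the 16 calls left by normexp background correction. Calls shared by the fits with and without the dim array numbered 993, all of one direction. The unirradiated and irradiated arrays did not overlap for 1320 genes (7.98%), and for 2759 (16.7%) without the dim array. The median log2 fold change over all genes was -0.01. At an unadjusted p under 0.05 by limma, 2102 of the 16549 genes were higher and 1603 lower. These shares and counts and this median are the background for the gene lists described next. The total number of calls moved by over 1.5 times without irradiated array 2 (1849 genes) and without unirradiated array 2 (535), 3 (614) or 5 (562).

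Targets of p53 were higher after irradiation in old mice. Of 38 tested members of the list, 20 rose and none fell, with a median of 1.31, and 21 rose and 1 fell without the dim array. Their mean level was -0.15, 0.03, -0.06, -0.25 and -0.03 on the unirradiated arrays and 1.02, 1.09, 1, 1.21 and 1.49 on the irradiated ones, so that the groups lay apart with the dim array highest. The list was chosen for its known regulation, and 30 of its 38 members had a positive fold change.

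Among the cell cycle genes of the list, 7 of 10 rose. Cdkn1a encodes p21, the inhibitor of cyclin-dependent kinases through which p53 halts the cycle, and its probe lies on chromosome 17 from 29237377 to 29237436 (mm9). Cdkn1a measured -1.47, -1.89, -1.88, -1.88 and -2.2 on the unirradiated arrays and 1.1, 2.22, 1.68, 1.89 and 2.9 on the irradiated ones. Every irradiated array lay above every unirradiated one, and the log2 fold change was 3.82 ± 0.43, adjusted p = 4.72e-05, a 14.2-fold rise, with a value of 3.09 within slide 4. Psrc1, a microtubule-binding protein of the mitotic spindle, measured -2.93, -3.82, -3.85, -3.6 and -4.23 before and -0.71, 0.41, 0.0, -0.04 and 2.4 after irradiation. It was well above background on 1 of 5 unirradiated and all 5 irradiated arrays, and differed by 4.1 ± 0.4, adjusted p = 1.7e-05, 17.1-fold, without overlap. Within slide 4 its value was 3.18. Zmat3, an RNA-binding zinc finger protein, ran from -1.69 to -0.80 at 0 Gy and from 0.11 to 0.65 at 4 Gy (1.74 ± 0.19, adjusted p = 3.69e-05), so the groups lay apart. Ccng1, which encodes cyclin G1, rose 3.9-fold and Sesn2, a stress-induced regulator of growth signalling, 2.3-fold (adjusted p = 0.00423 and 0.00299). Gtse1, a microtubule-bound protein that restrains p53, was not well above background on any unirradiated array and was at least 2.86-fold higher after irradiation (adjusted p = 0.0039). Plk2, a polo-like kinase, rose by 2.19 ± 0.48 although it was well above background on only 2 of 5 unirradiated arrays and the groups overlapped. Btg2, an antiproliferative gene, had a log2 fold change of -0.33 and Sesn1 one of -0.76 (adjusted p = 0.512 and 0.0525), so these did not pass. Plk3 was at 0.69 with an adjusted p of 0.33.

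Of the targets listed as feedback genes of p53, 3 of 5 rose. Mdm2, the ubiquitin ligase that degrades p53, measured 3.2, 3.14, 3.11, 3.01 and 3.08 in unirradiated and 4.18, 4.08, 3.8, 4.13 and 6.15 in irradiated blood. The unirradiated values spanned less than 0.2 and all irradiated values lay above them, yet the dim array stood far above its group, and the log2 fold change of 1.36 ± 0.32 (adjusted p = 0.0169) became 0.94 (adjusted p = 0.00232) without it. Phlda3, which blocks Akt signalling, measured 2.74, 1.82, 1.84, 2.03 and 1.38 against 3.93, 4.19, 3.8, 4.06 and 3.9. Its irradiated arrays lay within 0.4 of each other, and the rise was 4.04-fold (2.01 ± 0.21, adjusted p = 2.96e-05). Trp53inp1, a cofactor of p53, rose by 1.29 ± 0.28 (adjusted p = 0.00921). Ppm1d, the phosphatase that switches p53 off, gave 0.12 ± 0.24 (adjusted p = 0.818).

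**Figure D1:**
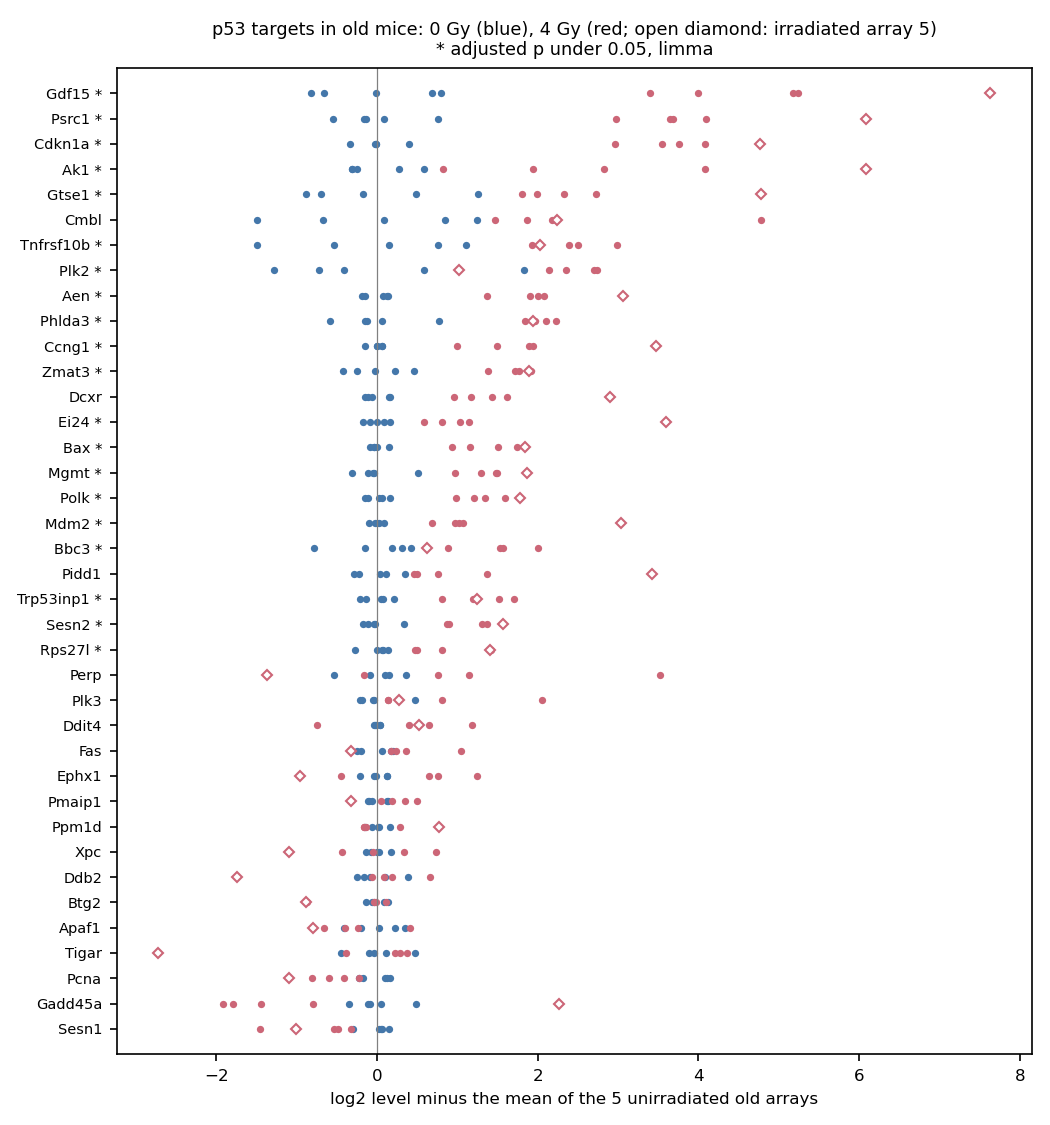
Each of the 38 tested p53 targets is shown by its log2 level on every array of old mice relative to the mean of the 5 unirradiated arrays (blue 0 Gy, red 4 Gy, open diamond the dim array, star an adjusted p under 0.05). Of these genes 20 carry a star and all 20 lie to the right, with Gdf15 at 5.09, Psrc1 at 4.1 and Cdkn1a at 3.82.

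Of the p53 targets that act in cell death, 5 of 9 rose. Aen, a nuclease of apoptotic cells, measured 1.56, 1.51, 1.25, 1.29 and 1.57 before and 2.8, 3.34, 3.44, 3.51 and 4.5 after irradiation. There was no overlap and the difference was 2.08 ± 0.23, adjusted p = 4.42e-05. Bax, which permeabilises the mitochondrial membrane, measured 2.98, 2.8, 2.8, 2.74 and 2.83 against 3.99, 4.34, 3.77, 4.57 and 4.67, again without overlap, and rose 2.71-fold (1.44 ± 0.2, adjusted p = 0.00048). Bbc3, the BH3-only protein PUMA, rose by 1.32 ± 0.28 and Tnfrsf10b, the TRAIL death receptor, by 2.37 ± 0.38, the latter well above background on 2 unirradiated and 4 irradiated arrays. Ei24, a membrane protein, was called over all arrays (adjusted p = 0.0443) but in only 4 of the 10 fits that leave out 1 array, and the dim array at 2.56 stood apart from the others at -0.45 to 0.11. Pmaip1, the BH3-only protein NOXA, measured 1.7, 1.93, 1.92, 1.69 and 1.74 against 2.14, 1.98, 1.85, 2.29 and 1.48. The groups overlapped and the log2 fold change was 0.15 ± 0.22 (adjusted p = 0.733). Fas gave 0.3, Apaf1 -0.34, Perp 0.78 and Pidd1 1.31, none of them called over all arrays. Pidd1 was called without the dim array (0.78, adjusted p = 0.0152).

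Repair genes under p53 were less uniform, with 2 of 6 higher and a median of -0.14. Polk, a polymerase that copies past lesions, rose by 1.38 ± 0.25 and Mgmt, which removes alkyl groups from guanine, by 1.42 ± 0.32 (adjusted p = 0.00357 and 0.0112). Xpc and Ddb2, which recognise damage for excision repair, gave -0.1 and -0.18, and Pcna, the sliding clamp, gave -0.62 (adjusted p = 0.884, 0.813 and 0.146). Gadd45a measured 4.6, 4.03, 4.0, 4.17 and 3.77 in unirradiated and 3.32, 2.33, 2.2, 2.67 and 6.38 in irradiated blood. The dim array was the highest of all 10 and the other 4 irradiated arrays were the lowest. Its log2 fold change of -0.73 (adjusted p = 0.53) therefore became -1.49 (adjusted p = 0.0256) without the dim array, a fall.

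Of the secreted and metabolic targets, 3 of 8 rose. Gdf15, a stress-induced cytokine of the TGF-beta family, measured -6.07, -4.57, -5.26, -5.91 and -4.45 before and -1.86, -0.01, -1.26, -0.08 and 2.38 after irradiation. It was well above background on 1 of 5 unirradiated and all irradiated arrays, which did not overlap, and rose 34-fold (5.09 ± 0.95, adjusted p = 0.00398), or 21.9-fold without the dim array, with 3.35 within slide 4. Ak1, an adenylate kinase, rose by 3.15 ± 0.68 (adjusted p = 0.00902), with irradiated values from -2.46 to 2.81, and by 2.42 without the dim array. Rps27l, a ribosomal protein relative, was called (0.92 ± 0.26) but kept the call in 3 of the 10 fits with 1 array left out. Values for Tigar, Ephx1, Dcxr, Ddit4 and Cmbl were -0.45, 0.25, 1.62, 0.4 and 2.5, and none passed. For Dcxr and Cmbl the old groups nevertheless did not overlap (adjusted p = 0.114 and 0.287 by limma). Their standard errors, 0.6 and 1.36, draw on the arrays of young mice too. The other probe of Ephx1 had the opposite sign (-0.24).

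B cell genes were lower after irradiation, by amounts that differed between mice and between genes. Of 28 tested B cell markers 11 fell and none rose, with a median of -1.50. The mean level of the list was 2.75, 2.77, 2.46, 2.91 and 2.91 at 0 Gy and 0.25, 2.32, 2.08, -0.01 and 0.38 at 4 Gy. Irradiated arrays 1, 4 and 5 were thus low, while irradiated arrays 2 and 3 lay just under the unirradiated range. Without irradiated array 2 the number that fell was 23, and over the 10 fits it ran from 8 to 23. In bulk blood fewer B cells and less RNA per cell cannot be told apart.

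Vpreb3 and Ccr6 were among the genes that fell on all irradiated arrays, arrays 2 and 3 included. Their promoters are shown because both hold the octamer bound by the factors OCT1 and OCT2. The sequences are the 250 bases before the transcription start from RefSeq (GRCm38.p6), Vpreb3 at chr10:75948050-75948299 and Ccr6 at chr17:8235793-8236042, both on the plus strand, with matches to ATGCAAAT on either strand in capitals.
Vpreb3: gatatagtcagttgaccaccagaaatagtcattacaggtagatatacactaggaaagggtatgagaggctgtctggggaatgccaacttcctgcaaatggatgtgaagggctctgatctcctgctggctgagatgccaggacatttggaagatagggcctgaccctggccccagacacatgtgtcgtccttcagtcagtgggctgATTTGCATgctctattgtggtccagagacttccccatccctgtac
Ccr6: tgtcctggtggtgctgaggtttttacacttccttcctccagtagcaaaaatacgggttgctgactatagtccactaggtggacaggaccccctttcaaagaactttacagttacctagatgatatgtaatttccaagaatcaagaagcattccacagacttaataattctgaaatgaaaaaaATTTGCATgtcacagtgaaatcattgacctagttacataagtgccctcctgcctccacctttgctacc
Both matches read ATTTGCAT on the printed strand and lie near the start, from base -45 to -38 in Vpreb3 and from -68 to -61 in Ccr6. The octamer was found in 3 of the 22 B cell markers with a RefSeq promoter (13.6%), Blnk being the other, and each of the 3 held 1 match. It was found in 490 of all 27025 genes with a promoter (1.81%), a gene counting if any of its promoters matched. Of 10 called markers with a promoter 2 held the octamer, and Blnk was not called by limma (adjusted p = 0.159). Holding the octamer and being called thus did not go together one to one. A match describes the letters and not binding.

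Vpreb3, a chaperone-like partner of the B cell receptor made in B lineage cells, measured 3.69, 3.82, 3.57, 4.15 and 3.83 in unirradiated and -0.84, -0.93, 0.22, -2.77 and 0.35 in irradiated blood. All 5 irradiated arrays lay at least 3 below the lowest unirradiated array, and the fall was 24.4-fold (-4.61 ± 0.52, adjusted p = 4.72e-05), with -4.69 within slide 4. Fcer2a encodes CD23, a receptor for IgE on mature B cells, and measured 1.3, 1.94, 1.52, 2.48 and 2.06 against -2.91, -1.61, -1.5, -4.94 and -3.29. It was well above background on 3 of 5 irradiated arrays and fell 26.2-fold (-4.71 ± 0.5, adjusted p = 3.38e-05). Ccr6, a chemokine receptor for CCL20, measured 2.12, 2.66, 2.34, 2.94 and 2.9 against -0.67, -1.36, -0.86, 0.65 and -0.04. There was no overlap and the fall was 8.27-fold (-3.05 ± 0.36, adjusted p = 8.78e-05). Fcrl1, an Fc receptor-like coreceptor, fell by 3.06 and Cr2, the complement receptor CD21, by 2.53 on the log2 scale (adjusted p = 0.00299 and 0.00603). Cr2 stood at 2.38 on the dim array, inside the unirradiated range, against -1.49 to -0.16 on the other irradiated arrays, and without the dim array its log2 fold change was -3.15 (adjusted p = 1.84e-05).

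The receptor component Cd79a behaved differently, measuring 5.45, 5.33, 4.23, 5.68 and 5.54 in unirradiated and 2.5, 5.8, 5.67, 2.84 and 2.31 in irradiated blood. Irradiated arrays 2 and 3 were among the highest of all 10 and arrays 1, 4 and 5 were the lowest, so the difference of -1.42 ± 0.63 did not pass (adjusted p = 0.188). Ebf1, a transcription factor of B cell identity, had the same split, with 0.54 and 0.34 on irradiated arrays 2 and 3 and -2.76 or less on the other irradiated arrays. It was called (-2.33 ± 0.64, adjusted p = 0.035), in 3 of the 10 fits with 1 array left out.

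Variable segments of immunoglobulin genes were lower as well. Of 55 heavy chain variable probes 23 fell and none rose (median -1.28), of 74 kappa variable probes 32 fell and none rose (median -1.89), and both lambda variable probes fell. The mean level of the kappa segments was -0.61, 0.02, -0.32, 0.33 and 0.05 at 0 Gy and -1.04, -1.88, -0.9, -2.6 and -2.24 at 4 Gy, without overlap. Segments are near-identical, so a single probe may read several. Among 11 constant region probes 1 fell, that of the IgD heavy chain (-3.0 ± 0.45, adjusted p = 0.000903), the receptor class of mature naive B cells. Markers of antibody-secreting plasma cells gave no call by limma among 8, with 2 higher at an unadjusted p under 0.05 and a median of -0.19, while 2 rose without the dim array (median 0.06).

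MHC class II genes, which present peptides on B cells, dendritic cells and some monocytes, had the same split between arrays as Cd79a. The mean level of the 11 genes was 3.99, 4.03, 3.72, 4.14 and 4.14 at 0 Gy and 1.68, 3.78, 3.53, 1.67 and 1.41 at 4 Gy. Over all arrays 7 of 11 fell and none rose (median -1.61), but 3 or 4 fell when unirradiated array 1, 2, 3, 4 or 5 or irradiated array 1, 4 or 5 was left out. H2-Aa, the alpha chain of I-A, measured 4.63, 4.82, 4.65, 4.92 and 4.89 against 2.23, 4.4, 3.9, 1.41 and 1.79. It fell 4.09-fold (-2.03 ± 0.45, adjusted p = 0.0108), with irradiated arrays 2 and 3 nearest to the unirradiated range. H2-Ob and H2-Oa, the chains of the H2-O regulator of peptide loading, fell 4.39-fold and 3.18-fold, and all 3 kept the call in each of the 10 fits. The peptide exchange subunits H2-DMa and H2-DMb2 and the beta chain H2-Eb2 were called (adjusted p = 0.0279, 0.0454 and 0.0454) and kept the call in 5, 2 and 2 of the 10 fits.

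**Figure D2:**
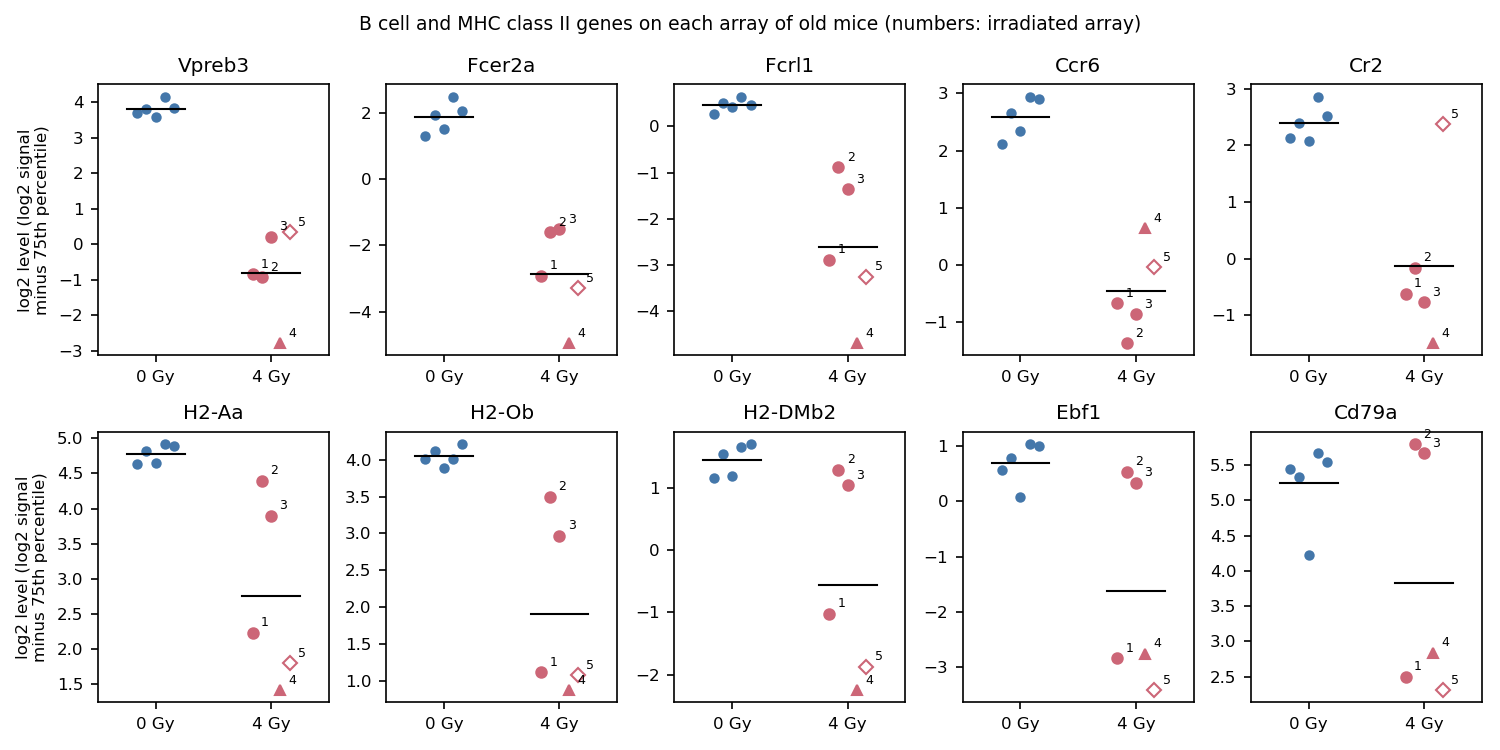
Log2 levels of 10 B cell and MHC class II genes are plotted for each array of old mice at 0 Gy and 4 Gy, with the number of each irradiated array beside its point and a black line at the group mean. Vpreb3 and Ccr6 are low on all 5 irradiated arrays, while Cd79a on irradiated arrays 2 and 3 (5.80 and 5.67) lies at or above the unirradiated arrays.

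T cell genes did not fall as a group. Of 19 markers 2 rose and none fell (median 0.36). The mean level was 1.87, 2.25, 2.1, 1.87 and 2.52 at 0 Gy against 3.05, 1.58, 2.24, 3.73 and 2.52 at 4 Gy, so only irradiated arrays 1 and 4 lay above the unirradiated range. Cd247, the zeta chain of the receptor complex, rose by 1.89 ± 0.36 (adjusted p = 0.00418), although its other probe gave 0.51 and did not pass. Lat, the adaptor below the receptor, was called (1.18 ± 0.3) and kept the call in 5 of the 10 fits. Cd3e, a core subunit, gave 0.82 ± 0.43 (adjusted p = 0.276). The number of T cell genes that rose was 4 without irradiated array 2 and 1 without irradiated array 1 or 4 or unirradiated array 2, 3 or 4.

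Markers of naive T cells had 3 falls and 1 rise among 17. Ccr7, the receptor that brings naive T cells and B cells into lymph nodes, measured 4.1, 4.12, 3.72, 4.28 and 4.35 before and 2.45, 2.95, 2.6, 0.62 and 1.98 after irradiation. The groups lay over 0.7 apart and the fall was 3.98-fold (-1.99 ± 0.38, adjusted p = 0.00485). Bach2, a transcription factor of naive lymphocytes, fell by 2.23 and the cytoskeletal gene Actn1 rose by 1.38 on the log2 scale (adjusted p = 0.00668 and 0.0077). Bach2 had another probe at 0.36, which did not pass. Ccr9, a homing receptor, was called at -1.49 (adjusted p = 0.0482) and kept the call in 3 of the 10 fits, its other probe gave 0.21, and the value within slide 4 was -0.23. Over all arrays regulatory T cell markers gave no call by limma among 6 (2 higher at an unadjusted p under 0.05), and activated or exhausted T cell markers none among 13 (4 higher). Without the dim array 2 rose and 1 fell of the 6, and 1 rose and 1 fell of the 13.

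Natural killer and cytotoxic genes gave no call among 23 by limma, with 7 higher at an unadjusted p under 0.05, a median of 0.64 and 21 of 23 fold changes above 0. Their mean level was 1.68, 2, 2, 1.49 and 2 at 0 Gy against 3.34, 2.02, 2.17, 3.02 and 1.9 at 4 Gy. Irradiated arrays 1 and 4 were high, and the other irradiated arrays lay at or near the unirradiated range. Ncr1, the receptor NKp46, gave 0.58 ± 0.52 (adjusted p = 0.554). In young mice 19 of these 23 genes rose, where 2555 of all 16549 genes rose, against 663 in old mice. No member of the list passed the test of the difference between ages.

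Monocyte genes were lower after irradiation in old mice. Of 31 markers 11 fell and none rose (median -0.70), and 15 fell and 1 rose without the dim array. Without unirradiated array 2 or 3 the number that fell was 7. Ccr2, the receptor for CCL2 that brings classical monocytes out of the marrow, measured 2.45, 2.39, 2.66, 2.15 and 2.02 at 0 Gy and 1.43, 0.37, 0.9, 0.11 and -0.53 at 4 Gy. All irradiated arrays lay below all unirradiated arrays, and the fall was 3.68-fold (-1.88 ± 0.28, adjusted p = 0.00069), with -0.84 within slide 4. Its probe lies on chromosome 9 from 124022948 to 124023007 (mm9). Chil3, a chitinase-like protein of classical monocytes, measured 6.46, 6.21, 6.7, 5.29 and 5.04 against 5.13, 3.28, 3.24, 1.99 and 2.44. It fell 6.63-fold (-2.73 ± 0.47, adjusted p = 0.00269), with irradiated array 1 alone inside the unirradiated range. Within slide 4, which holds that array, the value was -0.55. Ms4a6c, a tetraspan membrane protein, fell 2.96-fold without overlap (-1.56 ± 0.32, adjusted p = 0.00653).

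Genes of non-classical monocytes were among those that fell. Nr4a1, the nuclear receptor on which these cells depend, measured 5.38, 5.42, 5.53, 4.84 and 5.19 against 3.56, 4.55, 3.06, 3.34 and 4.21 and fell 2.88-fold (-1.53 ± 0.37, adjusted p = 0.0174). Its groups did not overlap. Cx3cr1, the fractalkine receptor, fell by 1.24, Irf5 by 1.38 and Adgre4 by 1.39, and these kept the call in 4, 4 and 7 of the 10 fits. Csf1r, the receptor for the growth factor of monocytes, gave -0.75 ± 0.24 and did not pass over all arrays (adjusted p = 0.0749). It passed without the dim array (-0.8, adjusted p = 0.0422 by limma). Over all arrays a further probe gave -1.12 (adjusted p = 0.0197) and another -0.33 (adjusted p = 0.327), both by limma. Across the 14 chemokine receptor genes 5 fell, namely Ccr2, Ccr6, Ccr7, Ccr9 and Cx3cr1, and none rose. Without the dim array 5 fell and 1 rose, and 3 fell without unirradiated array 1, 2 or 5 or irradiated array 3.

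Of 14 dendritic cell genes 4 fell and none rose. Flt3, the receptor for the growth factor of dendritic cells and early progenitors, measured -0.37, -0.36, -0.2, -0.31 and -0.45 against -2.18, -2.83, -2.1, -3.73 and -1.0. The unirradiated arrays lay within 0.3 of each other and no irradiated array reached them (-2.03 ± 0.43, adjusted p = 0.00773). Irf8, a transcription factor of monocyte and dendritic cell lineages, fell 2.21-fold and Cd209a, a lectin of monocyte-derived dendritic cells, 7.69-fold (adjusted p = 0.0132 and 0.0077). Dntt, the terminal transferase of lymphoid precursors that is also found in plasmacytoid cells, fell by 1.81 (adjusted p = 0.00299). Cd209a and Dntt were each well above background on 3 of 5 irradiated arrays.

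Genes of mature neutrophils were higher. Of 31, 9 rose and 1 fell with a median of 0.63, and 13 rose without the dim array. The mean level was 2.66, 2.59, 2.64, 2.93 and 2.26 at 0 Gy and 4.26, 3.33, 3.37, 2.52 and 3.35 at 4 Gy, with irradiated array 4 inside the unirradiated range. Slpi, a secreted inhibitor of neutrophil elastase, measured 5.81, 5.63, 5.85, 5.88 and 5.23 before and 7.82, 8.11, 7.47, 6.79 and 7.5 after irradiation. Its groups did not overlap and the rise was 3.62-fold (1.86 ± 0.33, adjusted p = 0.00299). The stefins Stfa1, Stfa2 and Stfa2l1, cysteine protease inhibitors so alike that their probes may share transcripts, rose 4-fold, 3.64-fold and 3.11-fold, and Stfa2l1 kept the call in 8 of the 10 fits. Ly6g, the surface antigen by which mouse neutrophils are sorted, rose by 1.26 ± 0.3 (adjusted p = 0.0151), with irradiated array 4 at -1.01 among the unirradiated values. Lrg1, Il1r2 and Asprv1 were called at 2.06, 1.43 and 1.47 and kept the call in 6, 3 and 4 of the 10 fits. The count of neutrophil genes that rose was 4 without irradiated array 1 or unirradiated array 5 and 5 without unirradiated array 2 or 3. Granule genes made early in neutrophil development gave 1 rise among 9, that of Lcn2 (1.45, kept in 3 of the 10 fits), and a median of -0.15.

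Among 14 eosinophil and basophil genes 2 rose and 3 fell. Those that fell belong to basophils and mast cells: Fcer1a, the alpha chain of the high-affinity IgE receptor, measured -0.01, 0.17, -0.05, 0.01 and 0.25 against -1.7, -0.71, -0.96, -1.96 and -3.32. There was no overlap (-1.81 ± 0.38, adjusted p = 0.0077). The basophil protease Prss34 fell by 1.28 and the receptor Cd200r3 by 1.89, and they kept the call in 7 and 6 of the 10 fits. Cd200r3 was well above background on 1 irradiated array. Hdc, the enzyme that makes histamine, was called in the other direction (1.12 ± 0.3) and kept the call in 4 of the 10 fits.

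Platelet genes rose. Of 28, 13 rose and none fell (median 1.20), and all 28 fold changes were above 0. The mean level was 5.22, 4.7, 4.59, 4.96 and 4.41 at 0 Gy and 6.5, 5.27, 5.32, 6 and 6.72 at 4 Gy, and every irradiated array lay above the highest unirradiated one. Itgb3, the beta subunit of the fibrinogen receptor, measured 6.77, 6.25, 6.05, 6.33 and 6.03 against 8.34, 6.89, 7.35, 8.53 and 8.75. The rise was 3.21-fold (1.68 ± 0.32, adjusted p = 0.00491). Thbs1, the granule protein thrombospondin, rose 3.82-fold, the clotting factor F5 3.17-fold and the ATP-gated channel P2rx1 2.95-fold (adjusted p = 0.00496, 0.00527 and 0.00703). Vwf, von Willebrand factor, rose 2.84-fold, although endothelium makes it too. Selp, the adhesion molecule P-selectin, rose by 1.52 ± 0.37 and kept the call except without unirradiated array 5. Itga2b, the partner of Itgb3, gave 1.38 ± 0.41 (adjusted p = 0.0524). The number that rose was 21 without irradiated array 2, 8 without irradiated array 1 or unirradiated array 5, and 6 without irradiated arrays 4 and 5 together.

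Calls among genes of red cell precursors and reticulocytes depended on the dim array. Of 34 erythroid genes none fell and 1 rose by limma over all 10 arrays (median -0.80; 4 lower at an unadjusted p under 0.05), whereas 24 fell and 1 rose without the dim array (median -1.54). The mean level was 4.53, 4.01, 3.93, 4.36 and 3.75 at 0 Gy and 3.33, 2.23, 2.37, 3.28 and 6.28 at 4 Gy. The dim array was the highest of the 10 and the other 4 irradiated arrays were the lowest, with no overlap among those 9. Ahsp, the chaperone of alpha globin, was chosen after its values were seen and measured 6.79, 6.01, 5.68, 6.45 and 5.71 against 4.44, 3.49, 3.33, 4.01 and 7.94. Its log2 fold change was -1.49 ± 0.69 (adjusted p = 0.211) over all arrays and -2.31 (adjusted p = 0.00446) without the dim array. Hbb-b1, the first gene of the list, is a beta globin whose near-identical copy makes its probe uncertain. It measured 11.29 on the dim array and 6.45 to 8.29 on the other irradiated arrays, and was not called in either fit (adjusted p = 0.766 and 0.0673). The gene that rose was Tfrc, the transferrin receptor, at 1.13 ± 0.28 (adjusted p = 0.0199), in 5 of the 10 fits with 1 array left out, and its other probe gave -0.84. The part of RNA yield or of sampling in the level of the dim array was not tested.

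**Figure D3:**
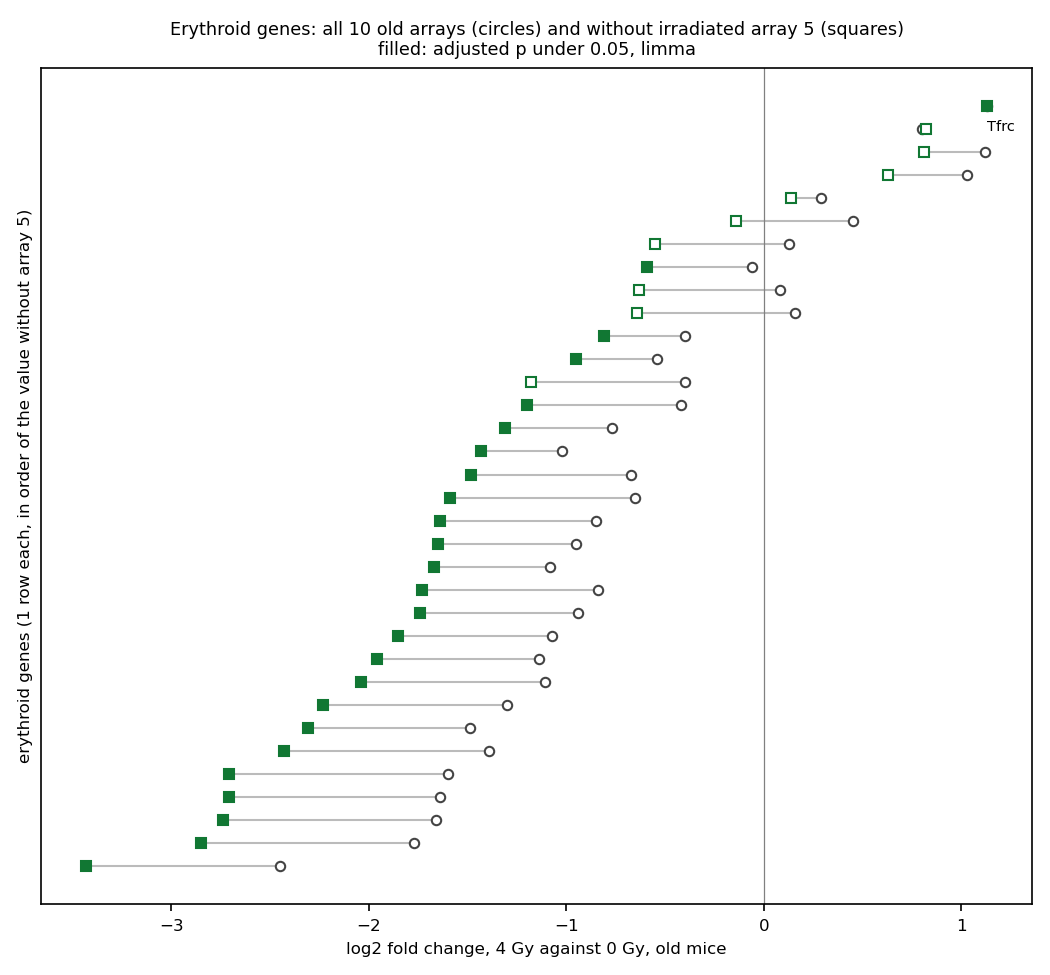
Log2 fold changes of the 34 erythroid genes in old mice, 1 row a gene in order of the value without irradiated array 5, are drawn over all 10 arrays (circles) and without that array (squares), filled where limma's adjusted p is under 0.05. Without that array 24 genes have a filled square on the left, and over all arrays the only filled circle is that of Tfrc on the right, hidden under its filled square.

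Progenitor markers gave 2 rises and 1 fall among 11, and 3 rises and 2 falls without the dim array. Cd34, found on progenitors and on endothelium, rose by 2.3 ± 0.5, with irradiated array 2 at -1.80 inside the unirradiated range, and its other probe gave 0.84 and did not pass. Myb, a transcription factor of early precursors, fell by 1.27 and Slamf1 was called at 1.27, and these kept the call in 7 and 4 of the 10 fits.

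Interferon-stimulated genes were higher in part. Of 52, 13 rose and none fell (median 0.53), and 19 rose and 1 fell without the dim array. The mean level was 1.8, 1.88, 2.01, 1.77 and 1.67 at 0 Gy and 2.51, 2.34, 2.65, 2.21 and 2.8 at 4 Gy, with no overlap. Promoters of 3 of these genes are shown because the response element for interferon, to which STAT and IRF factors bind, stands in them. The 250 bases before the start are from RefSeq (GRCm38.p6), Ifit3 at chr19:34583279-34583528, Ifit1 at chr19:34640639-34640888 and Gbp2 at chr3:142620413-142620662, all on the plus strand, with matches on either strand to GAAA, any 2 bases and GAAA in capitals.
Ifit3: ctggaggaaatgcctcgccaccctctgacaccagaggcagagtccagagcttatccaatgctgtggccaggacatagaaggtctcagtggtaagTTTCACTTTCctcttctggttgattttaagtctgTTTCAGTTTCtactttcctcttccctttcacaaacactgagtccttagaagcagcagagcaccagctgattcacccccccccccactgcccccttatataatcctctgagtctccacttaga
Ifit1: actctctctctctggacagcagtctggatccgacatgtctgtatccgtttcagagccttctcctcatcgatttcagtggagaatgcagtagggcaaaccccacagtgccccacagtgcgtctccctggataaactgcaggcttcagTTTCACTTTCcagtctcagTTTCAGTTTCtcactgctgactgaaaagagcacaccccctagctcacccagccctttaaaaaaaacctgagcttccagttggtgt
Gbp2: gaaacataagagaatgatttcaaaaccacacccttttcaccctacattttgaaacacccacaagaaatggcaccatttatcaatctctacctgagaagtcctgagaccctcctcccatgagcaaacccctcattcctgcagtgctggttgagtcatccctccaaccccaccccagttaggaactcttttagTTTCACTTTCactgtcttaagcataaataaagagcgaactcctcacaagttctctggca
In each of the 3 the matches are on the minus strand, and Ifit3 and Ifit1 hold 2 matches that do not overlap. The element was found in 17 of 38 members with a RefSeq promoter (44.7%) and in 936 of all 27025 genes with a promoter (3.46%). Of 10 called members with a promoter 5 held it, and Isg15, with 3 overlapping matches, was not called, so holding the element and being called did not go together one to one.

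Ifit3, an antiviral protein that binds foreign RNA complexes, measured 0.7, 1.16, 1.49, 0.83 and 1.23 at 0 Gy and 4.0, 3.64, 4.96, 2.92 and 2.7 at 4 Gy. The groups lay over 1 apart and the rise was 5.92-fold (2.56 ± 0.36, adjusted p = 0.000512), with 2.82 within slide 4. A near-identical copy, Ifit3b, may share the probe. Lgals3bp, a secreted glycoprotein that binds galectins, measured 4.03, 3.96, 4.11, 3.92 and 3.83 against 6.06, 5.48, 5.39, 6.52 and 6.27. Its unirradiated arrays lay within 0.3 of each other, and the rise was 3.93-fold (1.97 ± 0.22, adjusted p = 4.65e-05). For the Schlafen family member Slfn4 the rise was 7.65-fold, with irradiated array 4 at -0.12 just above the highest unirradiated value of -0.36. The oligoadenylate synthetase family members Oas2 and Oasl1 rose 3.4-fold and 3.85-fold (adjusted p = 0.0029 and 0.00425). Ifi44 rose by 2.28 ± 0.39, well above background on 1 unirradiated and 4 irradiated arrays. Isg15, the ubiquitin-like modifier also abundant in red cell precursors, measured 7.51, 6.92, 7.0, 7.23 and 6.25 against 6.19, 5.22, 4.85, 6.6 and 10.36. Its dim array was the highest of the 10, as for the erythroid genes, and its log2 fold change was -0.34 over all arrays and -1.27 without it (adjusted p = 0.83 and 0.0515).

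Acute phase and macrophage genes had some of the larger increases. Saa3, a serum amyloid A made by macrophages and other tissues, measured 2.87, 1.46, 0.34, 1.58 and 1.61 before and 5.98, 8.6, 6.91, 7.14 and 5.4 after irradiation. There was no overlap and the rise was 37.6-fold (5.23 ± 1.0, adjusted p = 0.0046), with 4.81 within slide 4. Marco, a scavenger receptor of tissue macrophages, measured -0.3, -0.76, -3.36, -1.94 and 0.33 against 3.84, 6.2, 4.24, 4.45 and 3.1, a 47.6-fold difference (5.57 ± 1.0, adjusted p = 0.00299). Irradiated array 2 was the highest for both. Cd5l, a macrophage protein that supports survival, rose 17.8-fold, and Gas6, the bridge from dying cells to TAM receptors, 11-fold (adjusted p = 0.00865 and 0.00299). Of 29 phagocytosis genes 5 rose and none fell (median 0.19), while 6 rose and 2 fell without the dim array. Those that rose included Itgb5 and Cd300lf (1.01 and 1.18, kept in 4 and 8 of the 10 fits). Without irradiated array 1 or unirradiated array 5, 3 rose. Saa1, whose probe may also read Saa2, was called at 3.32 ± 0.96, in 1 of the 10 fits.

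Complement components rose with them. Of 15 complement genes 7 rose and 1 fell (median 1.73). C4b, a component of the classical and lectin pathways, measured 0.83, -0.45, -0.52, -0.66 and -0.88 against 3.1, 5.29, 4.33, 5.44 and 2.39, a 21.8-fold difference without overlap (4.44 ± 1.05, adjusted p = 0.0161). The chains of the recognition molecule C1q, encoded by C1qa, C1qb and C1qc, rose 10.8-fold, 5.61-fold and 13-fold. They kept the call except without unirradiated array 5, or for C1qb also unirradiated array 2. Cfd, the protease adipsin of fat and macrophages, was well above background on no unirradiated array. It was an estimated 5.24-fold higher (adjusted p = 0.0283 by limma), a call kept in 3 of the 10 fits. Cd55, which shields cells from complement, fell by 2.26 (adjusted p = 0.0116), with 2.62 on irradiated array 2 just under the lowest unirradiated value. The number that rose was 1 without unirradiated array 5, 3 without array 2 and 4 without array 3 or 4 of that group.

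Many of these genes are known from macrophages of the pleural and peritoneal cavities. A list of 15 such markers had 10 that rose and none that fell (median 2.60), and 6 rose without unirradiated array 5. Their mean level was 0.08, -0.29, 0.06, -0.87 and -0.98 at 0 Gy and 1.85, 3.53, 2.16, 2.43 and 1.36 at 4 Gy, without overlap. Of the 15, 12 to 14 were well above background on the unirradiated arrays, 15 on irradiated arrays 1 to 4 and 12 on the dim array. Gata6, the transcription factor that marks peritoneal macrophages, was well above background on no unirradiated array and 4 irradiated arrays. It measured -2.0, -0.02, -1.46, -1.2 and -2.96 on the irradiated arrays, an estimated 5.49-fold higher (adjusted p = 0.00568 by limma). Prg4, the lubricant of joints and serous surfaces, rose 22-fold and Garnl3 15.5-fold (adjusted p = 0.00808 and 0.0128), the latter well above background on 2 unirradiated and 4 irradiated arrays. Alox15, a lipoxygenase of these macrophages and of eosinophils, was called at 2.6 ± 0.71, in 2 of the 10 fits. Marco, Saa3, C4b and the C1q genes are expressed by other macrophages too.

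Markers of mesothelium, the cell layer that lines these cavities, had higher mean levels on irradiated arrays 1 to 4 than on the unirradiated arrays. Of 12, 8 rose and none fell (median 2.72). The mean level was -4.35, -4.38, -4.45, -4.47 and -3.59 at 0 Gy and -1.33, -2.46, -0.23, -0.39 and -2.54 at 4 Gy, and 12, 7, 12, 12 and 1 of the 12 were well above background on the irradiated arrays against 3 to 6 on the unirradiated ones. On the dim array the mean thus rests on signals near that array's lowest and shows no rise. Krt8, a keratin of simple epithelia, was well above background on no unirradiated array. It was an estimated 21-fold higher after irradiation (adjusted p = 0.0213 by limma), a call kept in 7 of the 10 fits. Krt19, well above background on 1 unirradiated and 4 irradiated arrays, rose by 4.43 ± 0.78 and Igfbp6, a binding protein of insulin-like growth factors, by 2.72 ± 0.52. Igfbp6 measured -1.0, -0.59, -1.22, -0.42 and -0.21 against 2.89, 0.45, 2.7, 2.77 and 1.37, without overlap. Gpm6a was an estimated 2.28-fold higher, Upk3b an estimated 2.31-fold and Efemp1 an estimated 3.51-fold, the last 2 in 5 and 2 of the 10 fits. Msln, mesothelin, measured -6.08, -4.65, -5.58, -5.31 and -3.44 against -1.8, -4.53, 0.67, 1.27 and -3.35. It was low on irradiated arrays 2 and 5, and was called only without the dim array (3.46, adjusted p = 0.0512, against 3.91, adjusted p = 0.0222). The number of mesothelial genes that rose was 3 without irradiated array 4, 4 without unirradiated array 2, and 5 without irradiated array 1 or 3 or unirradiated array 3 or 5.

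Collagen-rich tissue and liver gave a less even picture. Of 7 endothelial and fibroblast genes tested 3 rose, the collagens Col1a2 and Col3a1 and the proteoglycan Dcn (2.43, 3.14 and 4.16), and they kept the call in 2, 3 and 5 of the 10 fits. Col3a1 was well above background on 1 unirradiated and 3 irradiated arrays. All 3 have overlapping groups, with irradiated array 2 inside the unirradiated range, and 5 genes rose without that array. Cdh5, the cadherin of endothelium, gave -0.35 ± 0.57 (adjusted p = 0.77) and was well above background on 3 unirradiated arrays and 1 irradiated array. Hepatocyte genes were low on all arrays of old mice except irradiated array 4 and, in part, the dim array. Their mean level was -3.76, -4.42, -3.96, -3.89 and -4.58 at 0 Gy and -3.64, -3.52, -3.57, 3.26 and -1.08 at 4 Gy, and all 26 were well above background on irradiated array 4, 10 to 14 on the other irradiated arrays and 6 to 8 on the unirradiated ones. None of the 26 was called by limma in old mice, over all arrays or without the dim array, and 2 were higher at an unadjusted p under 0.05 over all arrays. Alb, serum albumin, measured 4.80 on irradiated array 4, -0.70 on the dim array and -3.18 or less on the other 8 (adjusted p = 0.302). Heart muscle and lung epithelium markers gave no call by limma among 4 and 6 tested (2 and 1 higher and none and 2 lower at an unadjusted p under 0.05). The mean level of the heart muscle markers was nevertheless 3.75 on irradiated array 3, where all 4 were well above background. It lay from -3.83 to -1.62 on the other arrays of old mice. Markers of cavity macrophages and mesothelium moved with irradiation, and their part in the rise of Saa3, Marco and complement was not tested.

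**Figure D4:**
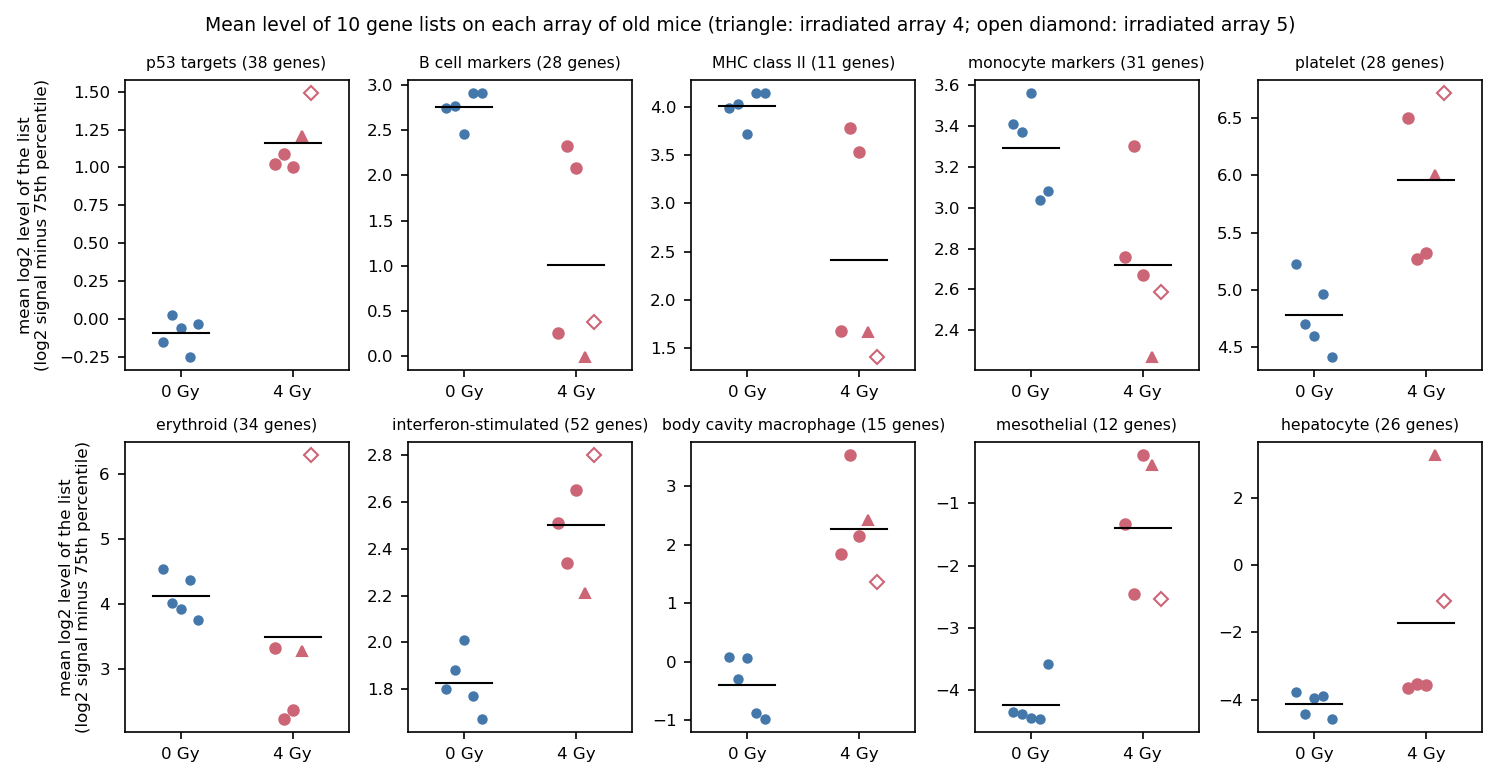
The mean log2 level of 10 gene lists is shown for each array of old mice at 0 Gy and 4 Gy (triangle irradiated array 4, open diamond irradiated array 5, black line the mean of 5 arrays). The p53, B cell, platelet, interferon and body cavity macrophage lists do not overlap between doses, the mesothelial diamond rests on 1 of 12 genes well above background, and the hepatocyte list reaches 3.26 on irradiated array 4.

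Inflammatory mediators did not move together. Of 23 genes tested 3 rose and 4 fell, and 3 rose and 2 fell without the dim array. The 3 that rose, Saa1, Saa3 and Lcn2, are acute phase genes, of which 5 were tested. Il6, the cytokine that drives the acute phase in liver, measured -2.05, -2.19, -2.7, -2.59 and -1.8 against -3.91, -2.88, -4.83, -6.04 and -3.52. It fell by 1.97 ± 0.41 (adjusted p = 0.00724), well above background on all unirradiated arrays and 1 irradiated array. Of 10 genes of the NF-kB pathway 3 fell over all arrays and 1 without the dim array. Among its subunits Nfkb2 fell by 1.04 ± 0.23 (adjusted p = 0.0108) and Rel by 1.09, the latter kept in 2 of the 10 fits and not called without the dim array (adjusted p = 0.0589). Il1b, the fever cytokine, gave 0.45 ± 0.36 (adjusted p = 0.492). Of 9 Toll-like receptors Tlr1 was called lower and Tlr12 higher (-1.25 and 1.07, kept in 5 and 3 of the 10 fits), and 2 fell and none rose without the dim array.

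Among 18 genes of senescence and its secretory phenotype 5 rose and 2 fell. Beside Cdkn1a and Gdf15, the genes that rose included the chemokine gene Ccl8 and Spp1, osteopontin. They were an estimated 2.68-fold and 1.72-fold higher (adjusted p = 0.00603 and 0.00561 by limma). Neither was well above background on any unirradiated array. In the apoptosis list 4 of 39 rose and 1 fell, and 7 rose and 2 fell without the dim array. Beside Bax, Bbc3 and Tnfrsf10b, Casp4, the inflammatory caspase 11, rose by 0.77 ± 0.17, and Bmf, a BH3-only protein, fell by 1.5, kept in 7 of the 10 fits.

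Lists of general cell functions had few calls or none by limma. No gene was called among 37 of the cell cycle, 47 ribosomal proteins, 32 of oxidative phosphorylation, 25 of the oxidative stress response, 17 of the unfolded protein response and 16 immediate early genes, and 1 of 48 DNA repair genes fell. At an unadjusted p under 0.05 the cell cycle list had 3 higher and 4 lower, the ribosomal 1 and 5, the oxidative phosphorylation 2 and 1, the oxidative stress 3 and 1, the immediate early 3 and 1, the DNA repair none and 7, and the unfolded protein response none. Over all 16549 genes 2102 were higher and 1603 lower at that threshold. The medians of these lists lay between -0.34 and 0.25. Without the dim array 4 cell cycle genes fell and 2 rose, 3 DNA repair genes fell and 1 rose, and 6 ribosomal, 5 oxidative phosphorylation and 6 oxidative stress genes fell. Among 10 heat shock genes Hspb1 and Hsph1 rose (2.43 and 0.7), the latter in 2 of the 10 fits. Of 10 glucocorticoid targets 3 were called, and apart from Il1r2 these were Fkbp5 and Zbtb16, at 0.79 and 0.58, each in 4 of the 10 fits. Of 8 clock genes Nr1d1, the repressor REV-ERB alpha, was the 1 called. It was an estimated 1.71-fold higher (adjusted p = 0.0179 by limma), a call lost without unirradiated array 2.

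Some of the largest decreases fell outside any list. Crisp3, a cysteine-rich secretory protein, measured -0.78, -0.52, -0.87, 0.23 and -0.61 before and -5.85, -2.46, -5.32, -5.76 and -3.31 after irradiation. It was well above background on all unirradiated arrays and 1 irradiated array and fell 16.3-fold (-4.03 ± 0.54, adjusted p = 0.000295). Pla2g2d, a secreted phospholipase of lymphoid tissue, measured -1.73, -0.53, -0.3, -0.02 and -0.66 against -5.06, -4.42, -3.62, -5.81 and -3.42, again without overlap (-3.82 ± 0.48, adjusted p = 0.000163), and was well above background on 1 irradiated array. Klk1b5 and Klk1b26, kallikreins so alike that their probes may read one another, fell by 3.68 and 3.27 on the log2 scale (adjusted p = 0.000159 and 0.00187), each well above background on 1 irradiated array. Crip3, a LIM domain protein, was well above background on no irradiated array and at least 3.19-fold lower (adjusted p = 0.000136). B3gnt8, a glycosyltransferase, Cnn3, a calponin, and Ell3, an elongation factor of B cells, fell 10-fold, 10.6-fold and 9.01-fold, each without overlap, B3gnt8 and Ell3 being well above background on 3 of 5 irradiated arrays. Among the largest increases outside the lists were Plxdc2, a transmembrane receptor, and Ptgis, the prostacyclin synthase (16.7-fold and 16.7-fold, adjusted p = 0.00699 and 0.014). A further probe of Plxdc2 gave 0.83 and did not pass.

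The response in old mice differed from that in young mice for 289 genes (1.75%) by the interaction test of limma, 57 with a higher fold change in old mice (0.344%) and 232 with a lower one (1.4%). The share with a higher fold change, 19.7%, was 47% with the 75th percentile over probes measured on all arrays. Arrays of young mice carried signal of other tissues too. The mean level of the hepatocyte list was 4.81, 6.26, -1.92, 7.48 and 0.63 on the young unirradiated arrays and -2.06, 0.73, -1.53, 7.03 and -2 on the young irradiated ones, so that 4 of these 10 stood at 4.81 or more. The cavity macrophage list stood at 0.33, 3.11, -0.19, 2.92 and 2.84 against 2.84, 4.58, 3.35, 4 and 1.59. Their part in the differences between ages was not tested. Of genes called at both ages 636 had the same direction and 17 the opposite one. Of 31 monocyte genes 12 had a lower fold change in old mice and none a higher one. Ccr2 had a log2 fold change of -1.88 in old and 0.95 in young mice, a difference of -2.83 ± 0.39 (adjusted p = 0.00138). Ms4a6c, Ms4a6d and Ms4a4a gave -1.56, -0.59 and -1.68 in old mice against 1.51, 2.45 and 1.46 in young mice, and all 3 differed (adjusted p = 0.0019, 0.000135 and 0.0422). Csf1r and Adgre4 also differed, by -1.37 and -2.29, and so did Il6 (-1.97 against 1.01, adjusted p = 0.0161).

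Of the 52 interferon-stimulated genes 15 had a lower fold change in old mice and none a higher one. Ifit3 gave 2.56 in old and 4.87 in young mice, a difference of -2.31 ± 0.51 (adjusted p = 0.0286), and Ifi205 gave -1.08 against 2.22 (adjusted p = 0.0019). Of the 38 p53 targets 2 differed. Phlda3 gave 2.01 against 3.68 and Pmaip1 0.15 against 1.42, both lower in old mice (adjusted p = 0.00984 and 0.0425). For Cdkn1a the values were 3.82 and 3.92, with a difference of -0.1 ± 0.61 (adjusted p = 0.96). Among the largest differences in the other direction were Dynap (1.08 in old, -3.93 in young mice), Slc39a12 (0.3, -3.62), Lrrc75b (1.04, -2.81), Arnt2 (0.34, -3.46) and Adamts9 (0.27, -3.48). The probes of Slc39a12, Arnt2 and Adamts9 were well above background on no array of old mice. The count of differences depended on single arrays: it was 69 without unirradiated array 2, 75 without 3, 118 without 1 and 190 without 5, and 692 without irradiated array 1, 434 without 2 and 183 without 4. All arrays named here are of old mice.

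**Figure D5:**
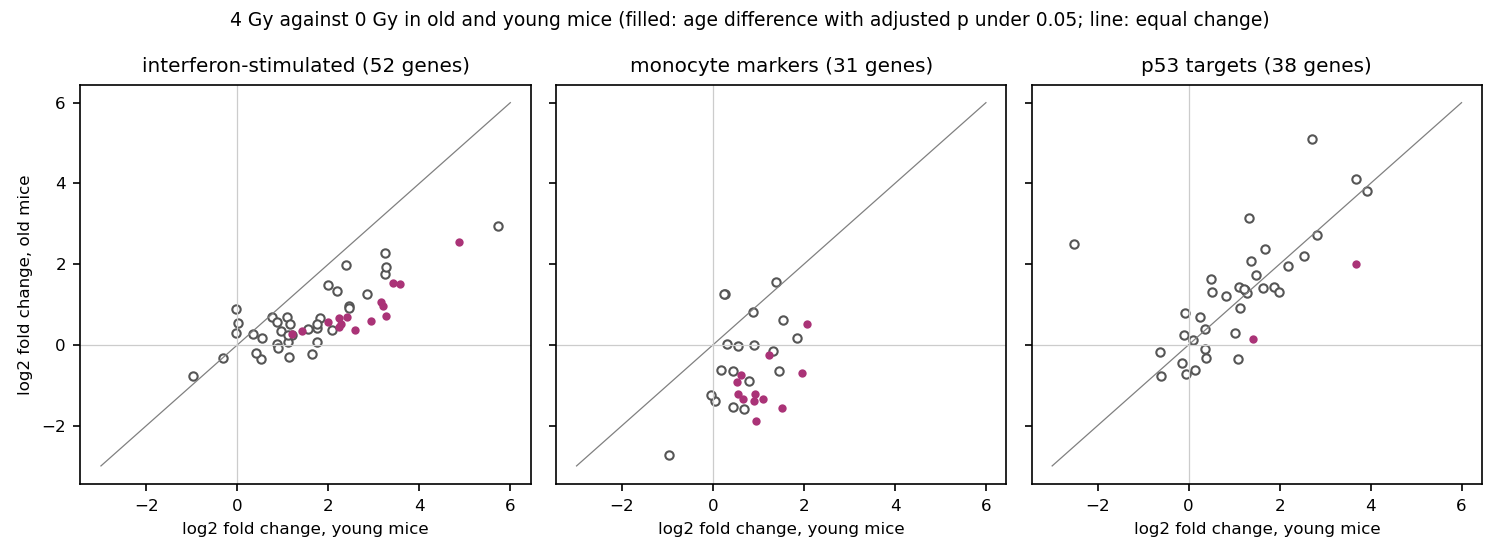
Log2 fold changes after 4 Gy are plotted gene by gene in young mice (horizontal axis) and old mice (vertical axis) for 52 interferon-stimulated genes, 31 monocyte markers and 38 p53 targets, filled where the difference between ages has an adjusted p under 0.05 and with a line of equal change. The filled monocyte and interferon genes, 12 and 15 in number, all lie below the line.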

How the data were processed

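Blood RNA of 20 female mice was measured on 1-colour Agilent arrays, 5 per group of age and dose. The submitters' processing notes name Agilent Feature Extraction 12.0.2. Per the file headers, the deposited scanner files hold a processed signal for each spot in intensity units, with no scaling between arrays. A deposited table of values on a log2 scale correlated with log2 of the scanner signal of the same array at r of 0.999 or more on 19 arrays and 0.988 on the dim array, which fixes its scale and direction but not its centring or filter. Its column medians ran from 5.177 to 5.764, and it served as an alternative.

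Control spots and scanner outliers were left out, spots of 1 probe were averaged (39429 probes) and the log2 signal was set relative to the 75th percentile of its array. A probe was kept (21096 were) if some group had 4 or more of its 5 arrays well above background. Each gene was represented by its brightest probe on average, which left 16549 genes with 30 missing cells. Among the 166 genes named, further probes differed in sign or call for the genes where the text says so and also in call for Cd300lf, Hsph1, Itgb3 and Vwf, whose probes agreed in sign. Probe coordinates are of mm9 (NCBI37), which differs from the build of the promoters (RefSeq, GRCm38.p6, promoters of 27025 genes). Names came from accessions (29093 probes), symbols (2974) or synonyms (139), and 7223 probes kept the name in the file.

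Group means over all 20 arrays were fitted with lmFit and eBayes (limma 3.58.1, R 4.3.3), with Benjamini-Hochberg adjustment over all genes, and all adjusted p-values are limma's. The dim array was taken out in a second fit. The number of arrays, 5 a group, limits the precision. The labels number the replicates, but numbers did not pair irradiated with unirradiated arrays (correlations of deviations -0.09, 0.41, -0.25, -0.07 and -0.53). For a gene well above background on no array of a group, that group's signals were raised to the lowest signals well above background. The other group kept its measured signals, also on arrays where the gene was not well above background. A fold printed as at least a value is a lower bound, with all arrays of the other group well above background. A fold printed as estimated is not a strict bound, because signals not well above background, such as those of the dim array, could enter it.

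The 43 gene lists, the alternatives and the members described were chosen with earlier results of these data known. Named were the 10 largest increases and 10 largest decreases among called genes without overlap, up to 6 called members of each list, the first gene of each list, all p53 targets and the 5 largest differences between ages in each direction. Not every gene so named is printed, and some are not reported here. On simulated data with 200 of 16549 genes changed, the fit recovered 43.3%, 68.7% and 95.5% of changes of 1, 2 and 3 on the log2 scale in old mice, with 5 false calls. The simulated noise of a gene was independent and of the same spread on every array, with no dim array or slide difference. Recovery and false calls in the measured data may therefore differ from these. Alternatives covered background correction, normalization, filters, slide and replicate blocks, array weights, the deposited table and leaving out each old array.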

Additional observations from a re-analysis of the deposited data

Results flagged for a closer look

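A single array stood apart from the other 4 of its group, by more than Dixon's 95% critical value for the gap over the range, in 29 of 344 groups of values examined; chance alone marks about 1 in 20. In 11 of the 29 it was the dim array (irradiated array 5). It was highest there for the mean of the erythroid list (6.28, the others at 2.23 to 3.33), Ahsp (7.94), Gadd45a (6.38), Mdm2 (6.15), Ei24 (2.56) and Dynap (-0.55), and lowest for Tigar (-3.12). For Slc39a12 (-3.36), Crip3 (-3.37), Arnt2 (-3.39) and Adamts9 (-3.40) the dim array was highest although the probes were well above background on no irradiated array.

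On the other irradiated arrays, array 1 was high for Lrg1 (5.54) and low for Ifi44 (-2.51), array 2 was low for Cd34 (-1.80), array 3 was high for Gpm6a (-1.64) and array 4 was high for Cmbl (-0.26). Among unirradiated arrays, array 1 was high for C4b (0.83), Plk3 (-0.05) and Ptgis (-0.97), and array 2 was low for Gpm6a (-6.36). Array 3 was low for Cd79a (4.23), Sesn1 (1.83), Hsph1 (1.39) and Tlr1 (0.69). Array 4 was high for Hdc (2.92) and low for Cx3cr1 (3.79) and Bmf (0.96), and array 5 was high for the mesothelial mean (-3.59) and Upk3b (-4.73).

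Differences between ages passed the interaction test of limma for 17 genes named in the text. The log2 fold change in old mice minus that in young mice was -3.30 for Ifi205, -3.14 for Ms4a4a, -3.08 for Ms4a6c, -3.05 for Ms4a6d, -2.98 for Il6, -2.83 for Ccr2, -2.31 for Ifit3, -2.29 for Adgre4, -1.72 for Hdc, -1.67 for Phlda3, -1.37 for Csf1r and -1.27 for Pmaip1. It was 5 for Dynap, 3.93 for Slc39a12, 3.85 for Lrrc75b, 3.80 for Arnt2 and 3.75 for Adamts9.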

How the results depend on the processing

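The number of genes called in old mice (1030) was 16 with normexp background correction, 628 with no filter on dim probes, 570 with only those probes that all 20 arrays measured, 0 with slide as a fixed block (1617 at an unadjusted p under 0.05), 4447 with slide as a random block (consensus correlation -0.2), 309 within slide 4, 647 in a fit of the 10 old arrays alone, 3718 with array weights, 453 from the deposited log2 table, which matched 9855 of the genes, and 1750 without irradiated arrays 4 and 5, an alternative added after seeing the data. It was 828 under quantile normalization, 996 with the 75th percentile over probes measured on all arrays, 947 with floored dim values, 1035 with trended variance, 805 at 2-fold or more, and 535 to 2466 when 1 old array was left out. With the replicate block it was 1225. The number that differed between ages (289) was 3 with normexp, 164 with the other 75th percentile, 52 with no filter, 174 with floored dim values, 2 with slide as a fixed block (208 unadjusted), 4671 with slide as a random block, 441 with the replicate block, 4541 with array weights, 17 from the deposited table, 185 without irradiated arrays 4 and 5, and 69 to 692 when 1 old array was left out. None of the 128 called genes named reversed its direction under an alternative that measured it. Of the 128, all lost the call with slide as a fixed block, 120 with normexp and 40 of 112 in the deposited table. The call was lost by 37 in the fit of the old arrays alone, 28 with no filter and 22 with quantile normalization. Floored dim values lost 14, the other 75th percentile 10 and the replicate block 10. Of 43 list medians, 19 moved by more than 1 SD between arrays with slide as a fixed block and 19 within slide 4, 16 with normexp, 12 without irradiated arrays 4 and 5, 7 with only probes that all arrays measured, and 5 or fewer under each other alternative. Beyond what fewer arrays or genes explain, the cause was not tested. Low signal over background limits the values of the dim array, and on simulated data changes of 1 on the log2 scale were recovered less often than changes of 2 or 3.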
